A study of Mus musculus with 12 samples.

Results

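Fibroblast growth factor (FGF) receptors and ligands were described in granulosa cells, which line the ovarian follicle and feed the oocyte, of wild-type mice and of mice without Inha, which encodes the alpha subunit of the hormone inhibin. The set holds 9 genes, the receptors Fgfr1, Fgfr2, Fgfr3 and Fgfr4 and the ligands Fgf1, Fgf2, Fgf7, Fgf9 and Fgf18. It was chosen by the measured values of Fgfr4, which was among the largest rises in Inha-/- over wild type after the first gonadotropin, PMSG. Every probe set annotated to these genes alone was taken, which gave 22 of the 34945 single-gene probe sets (9 of 18193 genes). Of the 22, 13 belong to receptors (Fgfr1 3, Fgfr2 3, Fgfr3 2, Fgfr4 5) and 9 to ligands (Fgf1 3, Fgf2 1, Fgf7 2, Fgf9 2, Fgf18 1).

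RNA was measured on 12 single-colour Affymetrix arrays, 3 for each of 4 groups. All mice were of the strain C57BL/6J;129S5/SvEvBrd and aged 21 days, and were given PMSG (pregnant mare serum gonadotropin, 5 IU), an analogue of follicle-stimulating hormone, for 44 to 46 h. The groups were wild type after PMSG, Inha-/- after PMSG, wild type after PMSG and then hCG (human chorionic gonadotropin, 5 IU), a stand-in for the ovulatory surge of luteinizing hormone, for 6 h, and Inha-/- after the same PMSG and hCG. Cells were obtained by puncturing antral follicles, so cells of other types can be present. The labels do not say whether an array held RNA of 1 animal or of pooled animals, so p-values measure the spread between these arrays, which may in part be technical. In the Inha-/- mice the deletion is in every cell of the body, so the granulosa cells also developed in an animal without inhibin.

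FGFs are secreted proteins that bind receptor tyrosine kinases on neighbouring cells, with heparan sulfate proteoglycans or a Klotho protein as co-receptors. Bound receptors signal through adaptor proteins to the RAS-MAPK and PI3K pathways, and the MAPK arm switches on its own inhibitors, among them Sprouty and Spred proteins and the phosphatase Dusp6. In the follicle, FGFs made by oocytes and theca cells act on granulosa cells, and FGF signals affect granulosa cell survival, metabolism and steroid production.

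Each deposited value is a log2 expression value set relative to the median of its probe set over the 12 arrays, so 0 is that median and not an absent transcript. Levels of different genes therefore cannot be compared, and whether a gene lay above background was not analysed here. A difference of 1 is 2-fold. A linear model (limma) was fitted to the 22846 single-gene probe sets whose SD over the arrays was in the upper 60% of all non-control probe sets, and a difference was called at a Benjamini-Hochberg adjusted p under 0.05.

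The targeted gene separated the genotypes on every array. Inha stood at 5.71 ± 0.145 (SD, n = 3) in wild type and -6.68 ± 1.11 in Inha-/- after PMSG, and at 5.45 ± 0.068 and -7.36 ± 0.0306 after hCG. The SD of the values of an array lay between 0.371 and 0.727 and was highest on replicate 3 of the wild type after hCG. Correlations of the centred values between replicates were lowest in Inha-/- after PMSG, at 0.205 to 0.358. They were 0.514 to 0.740 in wild type after PMSG, and 0.683 to 0.823 in wild type and 0.388 to 0.722 in Inha-/- after hCG. Such correlations also depend on how far a group lies from the median of the 12 arrays, so they do not measure replicate spread alone. By leading probe set, 6.54% of 12500 genes were called in either direction between the genotypes after PMSG and 22.5% after hCG. Among granulosa cell markers 9 of 10 were measured, and 2 of the 9 (Inha included) were lower in Inha-/- than in wild type after PMSG. After hCG 2 were higher (Hsd17b1 by 1.67 and Esr2 by 1.43) and 1, Inha, was lower, with a median over the list of 0.66, and 6 fell with hCG in wild type (22.8% of all genes called). The Esr2 call (limma adjusted p = 0.0412) was lost without any of 8 single arrays. It was also lost with no filter, after quantile normalization, with the array-name number as a block and with only these groups. Its adjusted p reached 0.170 over the alternatives. Markers of other cells moved with the genotype: of 14 theca and stroma markers 6 were higher and 1 was lower in Inha-/- after PMSG and 8 were higher after hCG, of 11 oocyte markers 5 and 6 were higher, and of 7 surface epithelium markers 4 were lower at each time. Of 7 endothelial markers tested 1 was lower at each time, and of 6 leukocyte and 2 red blood cell markers limma called none (unadjusted p under 0.05 in 1, a leukocyte marker after hCG). The median over 14 theca and stroma markers lay between -0.707 and -0.337 on wild-type and between 0.498 and 1.65 on Inha-/- arrays after PMSG, and between -1.13 and -0.490 and between 0.322 and 2.35 after hCG. The median over the oocyte markers (11 of 12 measured) lay between -1.59 and -0.158 on wild-type and between 0.578 and 2.07 on Inha-/- arrays after PMSG, and between -1.44 and -0.587 and between 0.158 and 2.85 after hCG. The median over 7 surface epithelium markers was 0.0375 to 0.729 on wild-type against -1.38 to -0.531 on Inha-/- arrays after PMSG and 0.354 to 1.04 against -0.575 to -0.105 after hCG. With centred values, which of these markers were absent cannot be read. The part of these cells in the genotype differences given next was not tested, and in such bulk RNA fewer cells of a type and less RNA per cell cannot be told apart.

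The receptors Fgfr1, Fgfr2 and Fgfr4 varied over the arrays, and most ligand probe sets and those of Fgfr3 varied little. The 9 ligand probe sets spanned 0.111 to 1.04 log2 units from their lowest to their highest array, with a median span of 0.286. The 13 receptor probe sets spanned 0.0711 to 5.88, with a median of 1.64. The median span of all single-gene probe sets was 0.916. The variability filter was passed by 12 of the 22 probe sets: 9 of receptors (5 of Fgfr4, 2 of Fgfr1 and 2 of Fgfr2) and 3 of ligands (Fgf1, Fgf7 and Fgf9, 1 probe set each). Just inside it were Fgf7 1438405_at with an SD of 0.154 and Fgfr4 1427845_at with 0.177, and just outside it Fgfr3 1421841_at with 0.114 and Fgfr1 1436551_at with 0.0988. The plot of the spread of all 22 probe sets shows the 2 ends of this range.

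**Figure D1:**
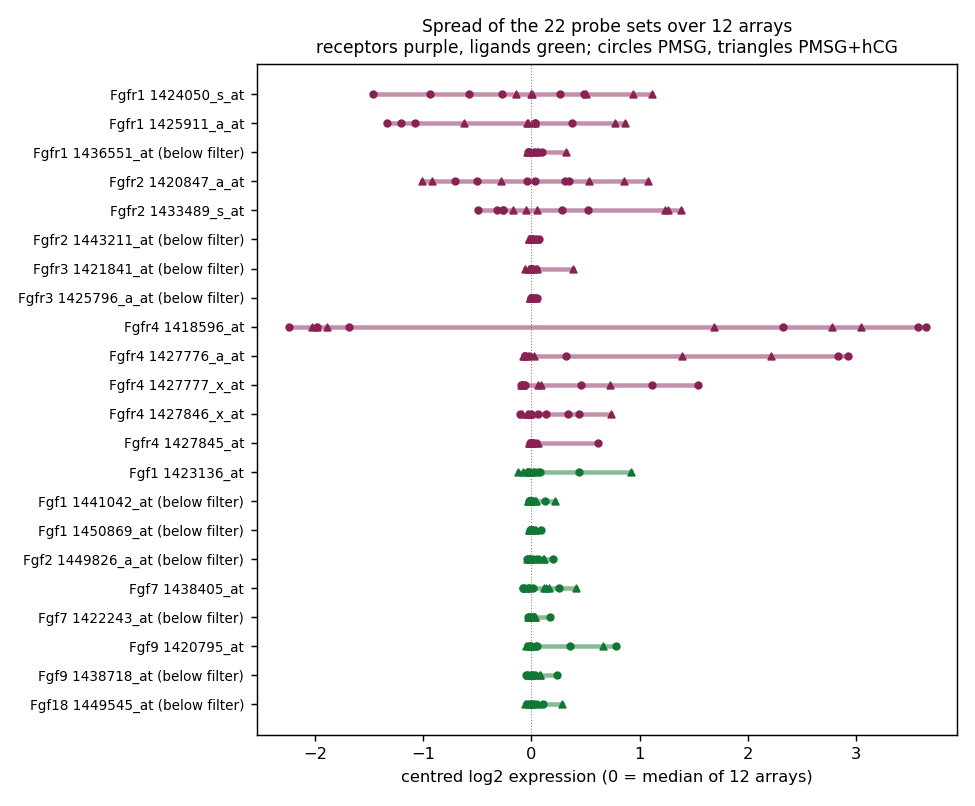
Each row is a probe set, with its value on each of the 12 arrays as points (circles after PMSG, triangles after PMSG and hCG) on a centred log2 axis and a bar from the lowest to the highest array. Receptors are purple and ligands green. Fgfr4 1418596_at runs from -2.24 to 3.64, while no ligand value lies above 0.92 or below -0.12.

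Fgfr4 is best known from liver, where with the co-receptor Klb it receives the intestinal hormone Fgf15. Its leading probe set, 1418596_at (the one of largest SD), separated the genotypes by several log2 units. After PMSG the wild-type arrays stood at -2.24, -1.98 and -1.69 (replicates 1 to 3) and the Inha-/- arrays at 3.57, 3.64 and 2.32. After hCG the wild-type arrays stood at -1.98, -1.88 and -2.03 and the Inha-/- arrays at 2.78, 1.69 and 3.05. All 6 Inha-/- arrays were above all 6 wild-type arrays. The difference of the means was 5.15 ± 0.387 (SE), or 35.5-fold, after PMSG and 4.47 ± 0.387, or 22.1-fold, after hCG. Fgfr4 thus ranked 2 of 12500 genes by rise after PMSG and 14 of 12500 after hCG. These values chose the gene and are given as a description, with no test. The arrays were also divided into early and late ones at the largest jump in their serial numbers. The genotype difference was 5.58 among the early arrays after PMSG (2 Inha-/- against 3 wild type). It was 4.76 (1 array against 1) and 4.32 (2 against 2) among early and late ones after hCG. After PMSG no wild-type array was late, and the late Inha-/- array was replicate 3, the lowest of its group at 2.32.

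Between the treatments Fgfr4 differed by less than between the genotypes. The mean of 1418596_at differed by 0.0059 between the treatments in wild type and by -0.68 in Inha-/-, where the arrays of the 2 treatments overlapped. Quantile normalization of the centred values, run as an alternative, gave 6.81 and not 5.15 for the difference between the genotypes after PMSG. It gave 4.40 for that after hCG, and -2.22 for the hCG difference in Inha-/-. The difference of responses went from -0.68 to -2.41. The sizes of the genotype difference after PMSG, the hCG difference in Inha-/- and the difference of responses thus depended on this step.

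The other 4 Fgfr4 probe sets followed 1418596_at to different degrees. For 1427776_a_at the Inha-/- arrays stood at 2.92, 2.83 and 0.32 after PMSG and at 2.21, -0.053 and 1.39 after hCG, and the 6 wild-type arrays lay between -0.082 and 0.019. Its Inha-/- mean was therefore higher by 2.07 after PMSG and by 1.23 after hCG, with replicate 2 after hCG at the level of wild type. For 1427777_x_at the Inha-/- arrays stood at 1.54, 0.46 and 1.11 after PMSG, above all wild-type arrays, and the difference was 1.11 after PMSG and 0.27 after hCG. The remaining probe sets 1427846_x_at and 1427845_at differed by 0.096 and 0.20 after PMSG and by 0.26 and 0.0020 after hCG, and the groups overlapped in both. Over the 12 arrays, which share genotype and treatment, Pearson's r with 1418596_at was 0.82 for 1427776_a_at, 0.70 for 1427777_x_at, 0.35 for 1427846_x_at and 0.24 for 1427845_at. By the maker's naming, a probe set ending in _a_at matches alternative transcripts of a gene, one in _s_at may match transcripts of more than 1 gene, and one in _x_at may also bind similar sequences. Where each probe set lies on the transcript was not analysed here.

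**Figure D2:**
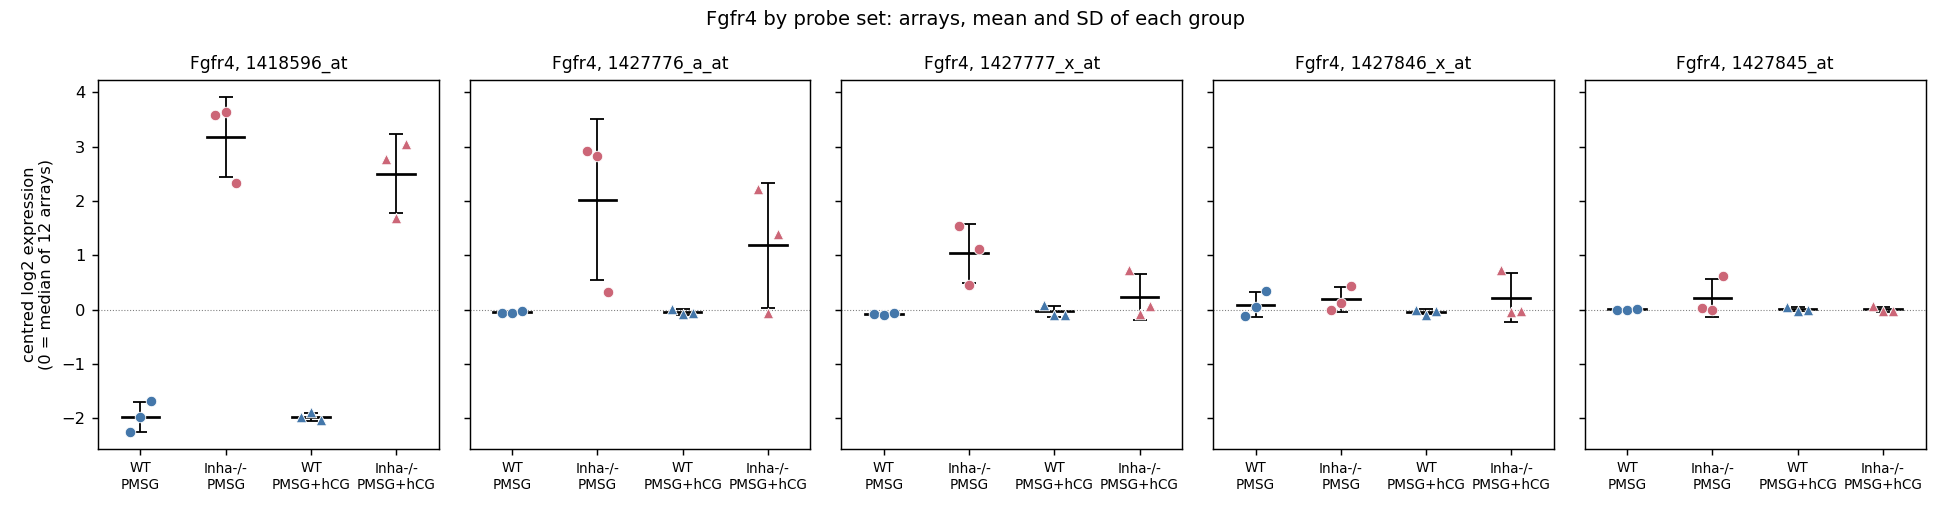
Each panel is an Fgfr4 probe set, with centred log2 expression of the arrays (points), the mean (bar) and the SD (whiskers) of each group of 3. The genotypes are far apart for 1418596_at, apart after PMSG for 1427776_a_at and 1427777_x_at, and overlapping for the last 2 panels.

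The promoters of Fgfr4, the receptor of the largest genotype difference, and of Fgfr2, called between the genotypes after hCG on 2 probe sets, are shown for the contrast in their base composition. The windows are the 250 bases before the annotated start in RefSeq's GRCm38.p6, at chr13:55152568-55152817 on the plus strand for Fgfr4 and chr7:130266809-130267058 on the minus strand for Fgfr2, read 5′ to 3′, with capitals marking GGGCGG boxes:
Fgfr4: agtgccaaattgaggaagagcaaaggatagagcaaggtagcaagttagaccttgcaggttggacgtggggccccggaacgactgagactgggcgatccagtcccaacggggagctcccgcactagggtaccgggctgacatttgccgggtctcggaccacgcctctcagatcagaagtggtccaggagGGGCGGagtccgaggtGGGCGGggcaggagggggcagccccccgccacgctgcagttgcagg
Fgfr2: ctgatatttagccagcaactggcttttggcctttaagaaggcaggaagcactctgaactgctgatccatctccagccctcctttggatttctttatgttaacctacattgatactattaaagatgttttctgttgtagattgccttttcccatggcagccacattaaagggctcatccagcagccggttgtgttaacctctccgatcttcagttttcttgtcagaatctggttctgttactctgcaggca

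The Fgfr4 window had a GC content of 64.0% and 15 CpG dinucleotides, and the Fgfr2 window 44.0% and 2, against medians of 52.4% and 6 over 32851 promoter windows of the same length. Both strands were searched for GGGCGG, the box bound by SP-family factors (in 32.7% of all windows), CAGAC, the SMAD box (42.2%), TGACG, the core of the cAMP response element (17.8%), and AAGGTCA, the site of NR5A nuclear receptors such as steroidogenic factor 1 (4.08%). The Fgfr4 window held 2 matches, both GGGCGG, at 62 to 57 and 46 to 41 bases before the start, and the Fgfr2 window held none. GGGCGG also occurred in both Fgfr3 windows (3 and 2 matches) and once each in those of Fgf2 and Fgf18. CAGAC was found in the windows of Fgf2, Fgf7, Fgf9 and Fgf18, and TGACG in those of Fgf2 and Fgf9. A match is a run of letters and not a site shown to be bound. In all, 7 of the 9 genes had a promoter window (8 windows).

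Fgfr1, the receptor of most mesenchymal cells, was lowest in wild type after PMSG and highest in Inha-/- after hCG. Its leading probe set 1424050_s_at stood at -0.58, -1.46 and -0.94 in wild type after PMSG and at 0.0019, -0.14 and -0.0019 in wild type after hCG. All 3 wild-type arrays after hCG were above the 3 after PMSG, and the rise was 0.95 ± 0.266 (SE; limma adjusted p = 0.0263), or 1.93-fold. In Inha-/- the arrays stood at -0.27, 0.27 and 0.49 after PMSG and at 0.50, 1.11 and 0.94 after hCG. These groups touched without overlapping, and the difference of 0.69 (95% interval 0.11 to 1.27) did not pass the test (limma adjusted p = 0.305).

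Between the genotypes, 1424050_s_at was higher in Inha-/- by 1.15 ± 0.266 after PMSG, given as a description since this comparison chose the set. After hCG it was higher by 0.90 ± 0.266 (limma adjusted p = 0.0332), with all 3 Inha-/- arrays above all 3 wild-type arrays. The hCG response did not differ detectably between the genotypes: the difference of the responses was -0.26, with a 95% interval of -1.08 to 0.56 (limma adjusted p = 0.810).

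The second Fgfr1 probe set, 1425911_a_at, ran alongside with r of 0.92 over the 12 arrays. It stood at -1.20, -1.34 and -1.07 in wild type after PMSG, at 0.030, 0.37 and 0.034 in Inha-/- after PMSG, at 0.035, -0.62 and -0.030 in wild type after hCG, and at -0.037, 0.77 and 0.86 in Inha-/- after hCG. The 3 wild-type arrays after PMSG were the lowest of the 12. It rose by 0.999 ± 0.260 with hCG in wild type (limma adjusted p = 0.0186), and after PMSG the Inha-/- mean was 1.35 higher than the wild-type mean. After hCG the genotypes overlapped, and the difference of 0.74 (95% interval 0.17 to 1.31) missed the threshold (limma adjusted p = 0.0662). The third probe set, 1436551_at, stayed between -0.039 and 0.31 on all arrays and did not pass the filter.

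Both Fgfr1 calls on 1424050_s_at were close to the threshold. The genotype call after hCG was lost without replicates 1, 2 or 3 of the wild type or replicates 2 or 3 of Inha-/- after hCG, with adjusted p from 0.0667 to 0.117 and differences from 0.77 to 0.92. For the hCG rise in wild type, the call on 1424050_s_at was lost without replicates 2 or 3 after PMSG or 1 or 3 after hCG (0.71 to 0.97, adjusted p from 0.0604 to 0.110). That on 1425911_a_at was lost without replicates 1 or 2 after PMSG or 1 or 3 after hCG (0.88 to 0.999, adjusted p from 0.0504 to 0.0821). With an early or late serial number as a covariate the rises were 0.74 (adjusted p = 0.112) and 0.93 (adjusted p = 0.0631). All 3 wild-type arrays after PMSG had early numbers and 2 of the 3 after hCG had late ones. Without replicate 1 of Inha-/- after hCG, the genotype difference of 1425911_a_at was 1.02 and passed (adjusted p = 0.0122). Within serial classes it was -0.072 among the early arrays (1 against 1) and 1.14 among the late ones (2 against 2).

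Fgfr2, in other tissues the epithelial receptor for Fgf7 and Fgf10 in one splice form, separated the genotypes after hCG on both of its varying probe sets. For 1433489_s_at the arrays after hCG stood at -0.17, 0.053 and -0.053 in wild type and at 1.38, 1.23 and 1.26 in Inha-/-. The 3 Inha-/- arrays after hCG were the highest of all 12, and the genotype difference was 1.35 ± 0.209 (limma adjusted p = 0.0011), or 2.54-fold. After PMSG the arrays stood at -0.49, -0.26 and -0.26 in wild type and at -0.32, 0.28 and 0.52 in Inha-/-. There the genotypes overlapped, and the means differed by 0.50 (a description). For the leading probe set 1420847_a_at the arrays after hCG stood at -0.28, -1.01 and -0.91 in wild type and at 1.08, 0.53 and 0.85 in Inha-/-, a difference of 1.56 ± 0.301 (limma adjusted p = 0.0038), or 2.94-fold. After PMSG they stood at -0.71, 0.037 and -0.037 in wild type and at 0.34, 0.31 and -0.51 in Inha-/-, with overlap and a difference of 0.29.

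Both calls after hCG held without each array in turn and under each alternative setting that gave a test (1 probe set per gene was run for 1420847_a_at alone), with adjusted p up to 0.0208 for 1420847_a_at and up to 0.0055 for 1433489_s_at. Within serial classes the differences were 1.36 and 1.66 for 1420847_a_at and 1.55 and 1.24 for 1433489_s_at, among early and late arrays in this order.

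Under hCG, 1433489_s_at rose in Inha-/- by 1.13 ± 0.209 (limma adjusted p = 0.0131), or 2.19-fold. That call was lost when the model was fitted to these 2 groups alone (adjusted p = 0.136). The leading probe set 1420847_a_at was 0.77 higher after hCG in Inha-/- (95% interval 0.11 to 1.43, limma adjusted p = 0.313). In wild type the 2 probe sets pointed to opposite sides, at -0.50 for 1420847_a_at (limma adjusted p = 0.283) and 0.28 for 1433489_s_at (limma adjusted p = 0.391), neither passing. With array quality weights the first was -0.74 and passed (adjusted p = 0.0227). Pearson's r between them was 0.67 over the 12 arrays. The hCG response of Inha-/- exceeded that of wild type by 1.27 ± 0.426 on 1420847_a_at and 0.85 ± 0.296 on 1433489_s_at. Neither difference of responses passed (limma adjusted p = 0.181 and 0.202). The third probe set, 1443211_at, stayed between -0.022 and 0.071.

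**Figure D3:**
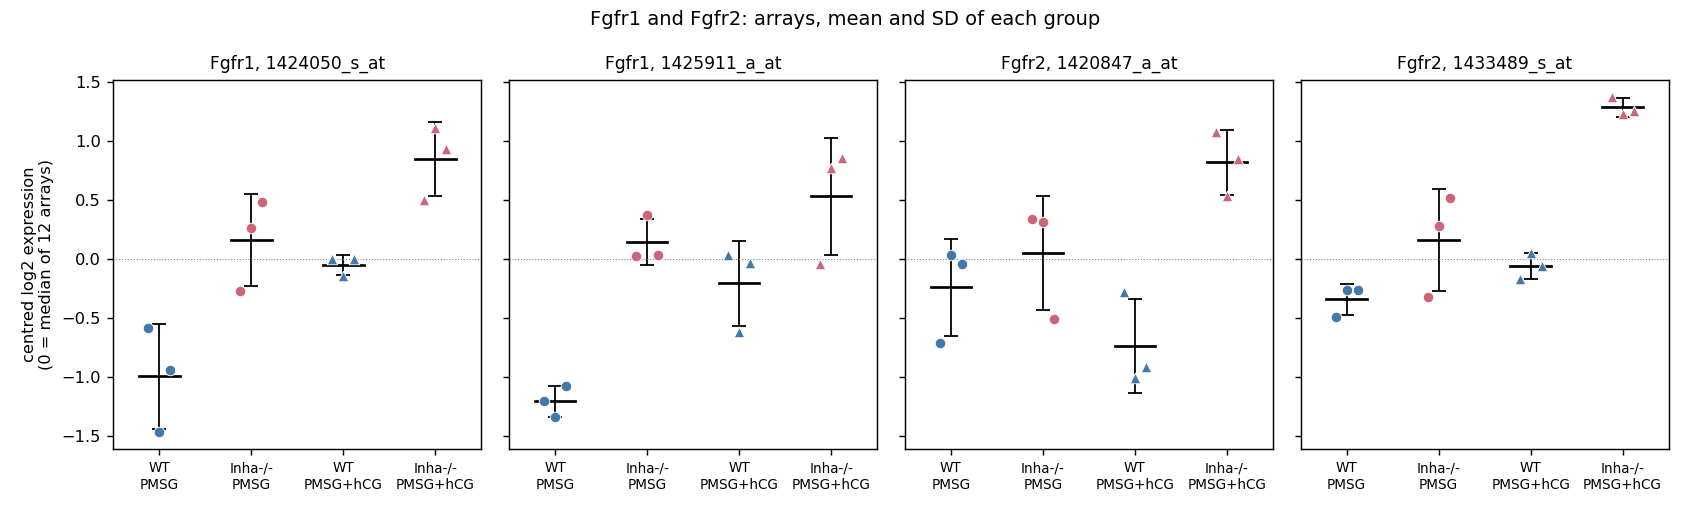
Panels give centred log2 expression of the 2 Fgfr1 and the 2 Fgfr2 probe sets past the filter on each array (points), with the mean (bar) and SD (whiskers) of each group of 3. Fgfr1 is lowest in wild type after PMSG, and Fgfr2 1433489_s_at is highest in Inha-/- after hCG, at 1.23 to 1.38.

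Fgfr3, a receptor known for restraining bone growth, gave no varying probe set. Its 1421841_at lay between -0.063 and 0.047 on 11 arrays and at 0.38 on replicate 1 of Inha-/- after hCG, and 1425796_a_at lay between -0.017 and 0.054 on all 12.

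Counted over the 8 genes other than Fgfr4, 7 of their 17 probe sets entered the fit. In the genotype comparison after hCG 3 of the 7 were called (Fgfr1 1424050_s_at and both of Fgfr2), all higher in Inha-/-, where 20.6% of all 22846 probe sets were called in either direction and 11.2% higher. In the hCG response of wild type 2 were called (both of Fgfr1), both higher, against 20.7% in either direction and 9.8% higher. In the hCG response of Inha-/- 1 was called (Fgfr2 1433489_s_at), against 2.31% in either direction and 2.17% higher. For the difference of the responses 0 of the 7 were called by limma and 2 had an unadjusted p under 0.05 (both of Fgfr2), against 2.01% called. In the genotype comparison after PMSG, on which the choice of the set rested, 2 of the 7 (both of Fgfr1) were past the threshold and the background was 5.79%, which is given without a reading. The median difference over all 17 probe sets, filter or not, was 0.12 in the genotype comparison after hCG and 0.015 and 0.077 for the hCG responses of wild type and Inha-/-, beside -0.00076, 0.0047 and -0.036 over all single-gene probe sets. The plot of the differences of the 12 varying probe sets shows receptors at or to the right of 0 in both genotype comparisons and ligands around 0.

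**Figure D4:**
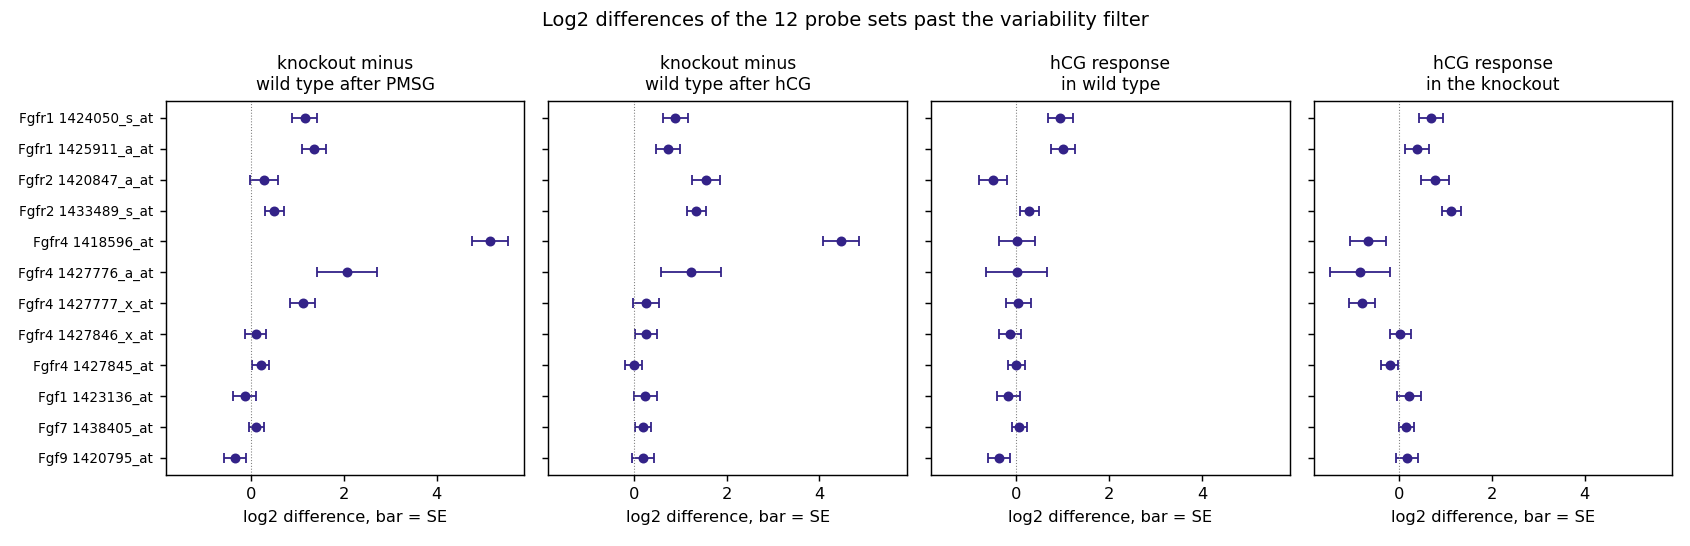
Log2 differences (points) with their SE (bars) of the 12 probe sets past the filter, in 4 comparisons from left to right. Fgfr4 1418596_at lies at 5.15 and 4.47 in the genotype panels, Fgfr2 moves from 0.29 and 0.50 after PMSG to 1.56 and 1.35 after hCG, and the 3 ligand rows stay between -0.37 and 0.25.

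Among the ligands limma called 0 of the 3 varying probe sets in any tested comparison, and none had an unadjusted p under 0.05 (the smallest was 0.13, for Fgf9). Of all probe sets 20.6% were called for genotype after hCG. For the hCG responses of wild type and Inha-/- the shares were 20.7% and 2.31%, and for their difference 2.01%. A count of 0 of 3 is near these shares. Fgf9, made by somatic cells of the developing gonad and required for testis development, stood on 1420795_at at 0.78, 0.36 and -0.031 in wild type after PMSG and at 0.66, -0.017 and -0.055 in Inha-/- after hCG. The other 6 arrays lay between -0.018 and 0.051, so single arrays carried its spread. Its hCG difference in wild type was -0.37 (95% interval -0.89 to 0.14, limma adjusted p = 0.303). Its genotype difference after hCG was 0.20 (95% interval -0.31 to 0.72, limma adjusted p = 0.620).

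Fgf1, the ligand that binds all FGF receptors, had its highest value on 1423136_at at 0.92 in replicate 1 of Inha-/- after hCG, beside -0.12 and -0.073 on the other 2 arrays of that group. The next highest was 0.43 in replicate 3 of wild type after PMSG, and its other 8 values lay between -0.038 and 0.082. The genotype difference after hCG was 0.25 with that array and -0.086 without it (limma adjusted p = 0.553 and 0.834), and that of Fgf9 was -0.030 without it. The same array also held the highest value of Fgfr3 1421841_at, 0.38.

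Fgf7, or keratinocyte growth factor, a stromal signal to epithelia, stood on 1438405_at at 0.12, 0.13 and 0.42 in Inha-/- after hCG and between -0.082 and 0.26 elsewhere. The genotype difference after hCG was 0.20 (95% interval -0.16 to 0.56, limma adjusted p = 0.445). Fgf2, the prototype heparin-binding FGF, and Fgf18, known from cartilage and lung, did not pass the filter. Fgf2 1449826_a_at lay between -0.040 and 0.20 and Fgf18 1449545_at between -0.056 and 0.28. The other 4 ligand probe sets also stayed below the filter (Fgf1 1441042_at and 1450869_at, Fgf7 1422243_at and Fgf9 1438718_at). No value of the 6 ligand probe sets below the filter was under -0.056 or over 0.28.

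Of 17 further FGF family genes 5 passed the filter. Fgf5, known as the brake on hair growth, was higher in Inha-/- than in wild type after hCG by 1.33 ± 0.307 on 1438883_at (limma adjusted p = 0.0101). Its Inha-/- arrays after hCG stood at 1.57, 1.97 and 0.41 and the other 9 between -0.041 and 0.082. Only the Inha-/- arrays after hCG took 1438883_at past the filter. The group called high thus also admitted the probe set, and its p-value is not independent support. The other Fgf5 probe set, 1426186_a_at, differed by 0.020, and with these groups alone in the fit the call was lost (adjusted p = 0.0601). Fgf13, an intracellular family member that binds sodium channels, fell by 1.36 with hCG in wild type on 1418497_at (limma adjusted p = 0.0331). That call was lost without any of the 3 wild-type arrays after PMSG or replicates 1 or 3 after hCG (-1.18 to -1.41, adjusted p from 0.0754 to 0.128), with no filter, after quantile normalization and with the serial number as a covariate (adjusted p = 0.0846, 0.0952 and 0.0619), and its other probe set 1418498_at changed by -0.029. No other gene of this list was called in any comparison. Of all genes 6.54% were called for genotype after PMSG and 22.5% after hCG. For the hCG responses of wild type and Inha-/- the shares were 22.8% and 2.7%, and for their difference 2.3%. Fgf15 and Klb, named for their part in Fgfr4 signalling and not by the rule for naming genes, did not pass the filter. The genotype differences after PMSG and after hCG were 0.029 and 0.0013 for Fgf15, and 0.028 and -0.00081 for Klb.

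Co-receptors, heparan sulfate proteins and other FGF binders varied more: 18 of the 20 listed genes passed the filter. In the hCG response of wild type 7 rose and 3 fell (22.8% of 12500 genes were called by their leading probe set). In that of Inha-/- 3 rose and 0 fell (2.7%). Between the genotypes 3 were higher and 2 lower in Inha-/- after PMSG (6.54%), and 4 higher and 5 lower after hCG (22.5%). For the difference of the responses 0 were higher and 1 was lower, which was Kl (2.3%). The medians over the list were 0.055 after PMSG, 0.18 after hCG, and -0.035 and 0.15 for the hCG responses of wild type and Inha-/-, beside 0.043, 0.00057, 0.0042 and -0.038 over all genes.

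Kl, alpha-Klotho, the co-receptor through which Fgf23 binds Fgfr1, had the largest change of the list. Its 1423400_at stood at 4.82, 3.96 and 5.37 in wild type after hCG and between -0.15 and 0.60 on the other 9 arrays, Inha-/- after hCG included (0.031, 0.60 and -0.020). The rise with hCG in wild type was 4.80 ± 0.301 (limma adjusted p = 9.17e-07), or 27.8-fold, and in Inha-/- the difference was 0.27. The difference of the responses was -4.53 ± 0.426 (limma adjusted p = 0.00025). The other Kl probe set, 1451892_at, changed by 0.011 in wild type and did not pass the filter.

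Sdc1, syndecan-1, a heparan sulfate proteoglycan, rose with hCG in both genotypes, by 3.23 ± 0.271 in wild type (limma adjusted p = 1.06e-05) and 1.74 ± 0.271 in Inha-/- (limma adjusted p = 0.0043). Its other 3 probe sets were higher after hCG by 2.43 to 2.90 and by 1.37 to 1.77. The call in Inha-/- was lost with only these groups in the fit (adjusted p = 0.065). Hs6st1, a heparan sulfate 6-O-sulfotransferase, rose by 2.99 in wild type and 2.01 in Inha-/-, and its genotype difference after hCG (Inha-/- minus wild type) was -1.75 (limma adjusted p = 0.00069). Gpc4, a glypican, was lower in Inha-/-, with differences of -2.11 after PMSG and -1.62 after hCG, and rose with hCG in Inha-/- by 1.32 (0.61 on its other probe set). In wild type its mean also went up, from 0.41 after PMSG to 1.23 after hCG (0.50 higher on its other probe set). Another glypican, Gpc3, was higher in Inha-/- after PMSG by 2.19 (limma adjusted p = 0.0035), as was Fgfbp3, which releases FGFs from heparan sulfate, by 1.56 after PMSG and 1.95 after hCG. The Gpc3 means stayed apart after hCG, at 1.02 in Inha-/- and -1.05 in wild type. Sulf1, which removes 6-O-sulfate groups, was lower in Inha-/- after PMSG (-1.99). That call was lost without replicates 1 or 3 of wild type or 2 or 3 of Inha-/- after PMSG (-1.62 to -1.99, adjusted p from 0.0505 to 0.0646), with no filter, with array quality weights (-1.50) and with only these groups in the fit (adjusted p = 0.0542, 0.0801 and 0.0543). Fgfrl1, a receptor without a kinase domain, fell by 1.26 with hCG in wild type (limma adjusted p = 0.0055). Its means after hCG were -1.39 in wild type and 0.20 in Inha-/-, and its other probe set was 1.22 higher in Inha-/- after hCG.

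Of 21 adaptors and kinases 15 were analysed here and all 15 passed the filter. With hCG 4 rose and 2 fell in wild type (22.8% of all genes called) and 0 were called in Inha-/- by limma (3 at an unadjusted p under 0.05, and 2.7% of all genes called). In Inha-/- 1 was lower after PMSG (6.54%) and 2 were lower after hCG (22.5%), and limma called none higher. The medians over the list were -0.21 after PMSG, -0.14 after hCG, and 0.084 and 0.15 for the hCG responses of wild type and Inha-/-. Grb2, the adaptor that links receptors to RAS, rose with hCG in wild type by 1.28 ± 0.164 (limma adjusted p = 0.00029) and was lower in Inha-/- after hCG (-1.11). Pik3r1, the regulatory subunit of PI3K, was lower in Inha-/-, by a log2 difference of -4.39 ± 0.450 after PMSG (limma adjusted p = 0.000303) and -1.65 after hCG. Its other 3 probe sets differed by -1.61 to -3.11 after PMSG. Without replicates 1 or 2 of wild type or 2 or 3 of Inha-/- after hCG the later call was lost (-1.53 to -1.67, adjusted p from 0.0605 to 0.0798), as with no filter (adjusted p = 0.0646). In wild type after hCG, Pik3r1 fell by 1.65, Gab1, a docking adaptor, fell by 1.05, and Map2k2, the kinase MEK2, rose by 0.92. Their other probe sets past the filter changed by -0.33 to -1.05 for Pik3r1, -0.17 and -0.40 for Gab1 and -0.055 for Map2k2. These 3 calls were lost without replicate 1 of wild type after PMSG or replicate 3 after hCG, and with the serial number as a covariate (adjusted p from 0.0522 to 0.112). Without replicate 2 of wild type after PMSG those of Pik3r1 and Map2k2 were lost (adjusted p = 0.0842 and 0.0535), and without replicate 3 that of Map2k2 (adjusted p = 0.069). That of Map2k2 was also lost after quantile normalization (0.73, adjusted p = 0.0825), and that of Pik3r1 with no filter (adjusted p = 0.0652).

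Of 15 feedback inhibitors and targets of FGF signalling 14 were measured and 12 passed the filter. With hCG 5 of the 12 rose, 0 fell and 7 were not called in wild type (22.8% of all genes called), and 6 rose, 0 fell and 6 were not called in Inha-/- (2.7%). The medians over the list were 0.48 and 1.11, beside 0.0042 and -0.038 over all genes. Between the genotypes 1 was lower in Inha-/- after PMSG (6.54%), and 1 was higher and 2 lower after hCG (22.5%), with medians of -0.33 and -0.18. These genes also answer to other receptors that act through MAPK. Dusp6, a phosphatase of MAP kinases, stood at -0.31, -1.35 and -1.17 in wild type and -2.82, -3.11 and -4.35 in Inha-/- after PMSG, and at 2.82, 2.27 and 2.65 and 1.90, 0.84 and 0.31 after hCG. It rose by 3.52 ± 0.463 in wild type (limma adjusted p = 0.00036) and 4.44 ± 0.463 in Inha-/- (limma adjusted p = 0.00018). It was lower in Inha-/-, with differences of -2.48 after PMSG (limma adjusted p = 0.0092) and -1.56 after hCG (limma adjusted p = 0.0333). The latter call was lost without replicates 1 or 3 of wild type or 2 or 3 of Inha-/- after hCG (-1.21 to -1.53, adjusted p from 0.095 to 0.132), and on arrays normalized again by quantiles the difference was -0.67 (adjusted p = 0.388). With no filter the adjusted p was 0.0872.

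Spred2 and Spry2, inhibitors of RAS-MAPK signalling, also rose in both genotypes by their leading probe sets: Spred2 by 2.38 in each and Spry2 by 1.30 and 1.84. The other Spred2 probe sets past the filter differed: 1436892_at changed by 0.92 in wild type and 1.71 in Inha-/-, 1441415_at by 1.39 and 0.016, and 1441802_at by 0.97 and -0.069. The Spry2 call in Inha-/- was lost with only these groups in the fit (adjusted p = 0.0688). Etv5, a transcription factor induced by FGFs, stood at 3.40, 3.21 and 4.09 in wild type after hCG, at 0.46, 2.05 and 1.15 in Inha-/- after hCG and between -0.90 and -0.46 on the 6 arrays after PMSG. It rose by 4.17 ± 0.351 in wild type (limma adjusted p = 1.07e-05) and 1.90 in Inha-/- (limma adjusted p = 0.0129), and was lower in Inha-/- after hCG (-2.35, limma adjusted p = 0.00083). Its other probe sets changed with hCG by 0.53 and 1.81 in wild type and by 0.0075 and 0.19 in Inha-/-. Flrt3, a membrane protein that binds FGF receptors, went the other way. It rose in Inha-/- by 1.85 ± 0.298 (limma adjusted p = 0.0054), while the wild-type difference was -0.64 (limma adjusted p = 0.156), and its Inha-/- arrays after hCG, at 1.93, 1.06 and 2.07, were above the other 9, the highest of which was 0.87.

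**Figure D5:**
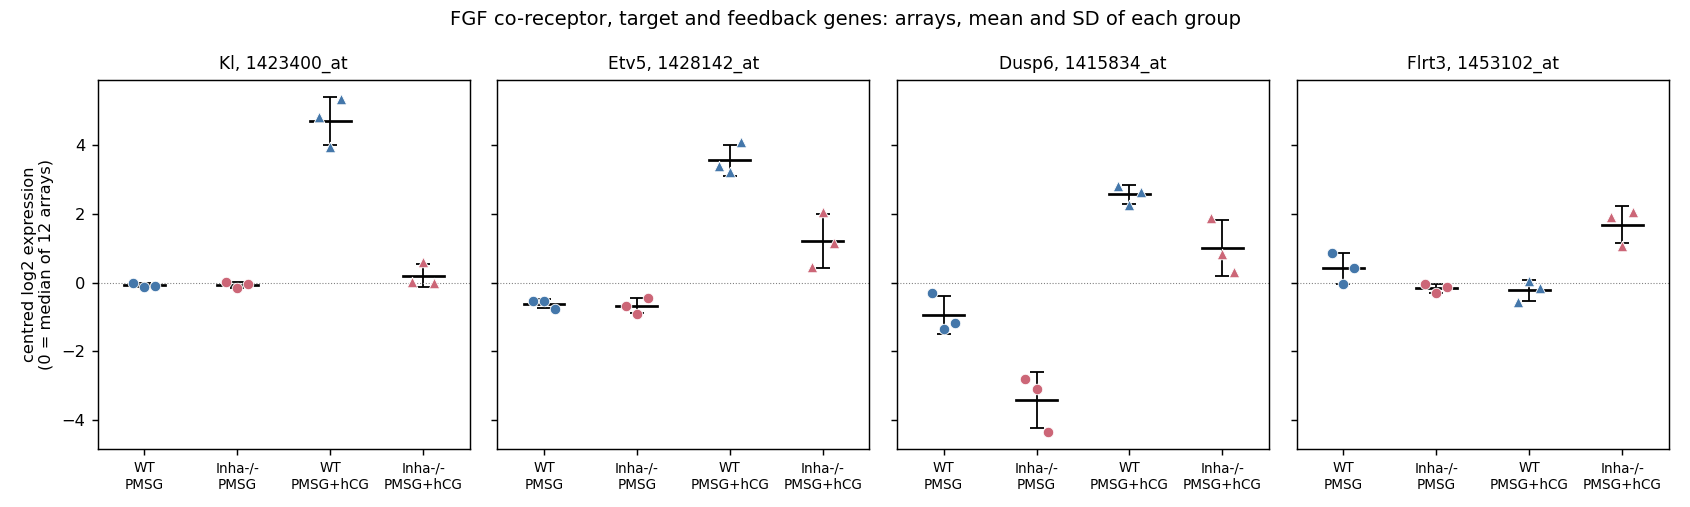
Centred log2 expression of Kl, Etv5, Dusp6 and Flrt3 on each array (points) with the mean (bar) and SD (whiskers) of each group of 3. Kl is high in wild type after hCG alone (3.96 to 5.37), Dusp6 rises with hCG in both genotypes, and Flrt3 is highest in Inha-/- after hCG (1.06 to 2.07).

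The genes whose pattern over the 12 arrays was most like that of each varying member were ranked by Pearson's r among the leading probe sets of 12499 other genes, as a description of arrays that share genotype and treatment. For Fgfr4 they were Nrsn1 (r = 0.98), Gli2 (0.97), Fam20c (0.96), Fen1 (0.96) and Zik1 (0.96). Gli2, a transcription factor of the hedgehog pathway, is also on the theca and stroma list. Its Inha-/- mean was higher by 2.73 after PMSG and by 2.52 after hCG, beside 5.15 and 4.47 for Fgfr4. For Fgfr1 they were Col4a1, a basement membrane collagen (0.96), Pmepa1, an inhibitor of TGF-beta signalling (0.95), and Srprb (0.95). Col4a1 had group means of -1.53 and 0.047 in wild type and Inha-/- after PMSG and -0.19 and 1.004 after hCG. For Fgfr2 they were Slc22a5, a carnitine transporter (0.92), Hells, a chromatin remodeller (0.91), and Brd3 (0.89).

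Of the ligands, Fgf1 was most like Ankrd63 (0.98), Hba-x (0.88) and Pik3ap1 (0.88), Fgf7 most like Pramel27 (0.93), Mtmr7 (0.92) and Arsj (0.91), and Fgf9 most like Cdh23, Jph1 and Csgalnact2 (0.87, 0.87 and 0.86).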

How the data were processed

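The authors deposited log2 values made with GCRMA, per the submitters' processing notes; its version is not given in the sources used here. Every probe set has a median of 0 over the 12 arrays, a centring that the labels do not state. The table held 0 columns of other samples. Gene names came from the platform's annotation table, in which 9160 probe sets have no gene and 932 have several. Members and lists were chosen with earlier results of these data known. A group-means model over the 12 arrays was fitted with limma 3.58.1 in R 4.3.3 to single-gene probe sets with an SD of at least 0.151, and p-values were adjusted over all of them in each comparison. Fgfr4, and every member in the genotype comparison after PMSG, entered the fit, but no p is given for them because those values chose the set. List genes were counted by the probe set of largest SD. The text names called list genes, at most 4 per list and comparison by smallest adjusted p, and the genes of highest likeness, with exceptions marked. Array number limits the precision. Only the limma fit was tested on simulated data, for the genotype comparison after PMSG.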

Additional observations from a re-analysis of the deposited data

Results flagged for a closer look

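In 3 genes of the FGF pathway the hCG response differed between the genotypes by the limma test of the difference of responses (Inha-/- minus wild type). The genes past the filter were 5 further FGF family genes, 18 co-receptors and binders, 15 adaptors and kinases and 12 feedback genes. Of all 12500 genes 2.3% were called in this comparison. For Kl 1423400_at the difference of responses was -4.53 (adjusted p = 0.00025), from 4.80 in wild type and 0.27 in Inha-/-. Adjusted p stayed at or under 0.0021 in every alternative run, and the other Kl probe set gave -0.025. For Flrt3 1453102_at it was 2.49 (adjusted p = 0.0115), with adjusted p up to 0.037 over the alternatives, and the other Flrt3 probe set gave 2.52. For Etv5 1428142_at it was -2.28 (adjusted p = 0.0399), and 2.05, the highest Inha-/- array after hCG, lay below 3.21, the lowest wild-type array. That call was lost with no filter (adjusted p = 0.101), after quantile normalization (-1.41, adjusted p = 0.126), with the replicate block (adjusted p = 0.0557) and without any of 10 single arrays, all but replicate 2 of wild type and replicate 2 of Inha-/- after hCG (-1.90 to -2.39, adjusted p from 0.0574 to 0.105). The other Etv5 probe sets gave -0.52 and -1.62.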

How the results depend on the processing

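Settings that moved a count of calls by over 1.5 times are given here, with the ranges without single arrays and some counts that moved less. With 1 probe set per gene 12500 and not 22846 probe sets were tested, so those counts are not comparable as they stand. For genotype after PMSG, 1322 probe sets were called, 774 with 1 probe set per gene (12500 tested), 744 with only these groups in the fit, and 741 to 1557 without single arrays. For genotype after hCG the 4709 became 2672 with 1 probe set per gene and 2720 to 5258 without single arrays. For the hCG response of wild type the 4725 became 2764, 7959 with array quality weights, and 2524 to 5391 without single arrays. For that of Inha-/- the 528 became 334, 231 with only these groups, and 346 to 604, and its split of 495 higher and 33 lower became 564 and 160 after quantile normalization. For the difference of responses the 459 became 261, 305 after quantile normalization, 846 with weights, and 216 to 938. Among the 7 FGF probe sets, the 2 past the threshold after PMSG became 1 with no filter, with 1 probe set per gene or with only these groups, and 1 to 3 without single arrays. After hCG 3 became 2 to 4. In the hCG response of wild type 2 became 1 with no filter, 1 probe set per gene or the array-name number as a random block, 0 with the serial number as a covariate, and 0 to 2 without single arrays. In that of Inha-/- 1 became 0 with 1 probe set per gene or only these groups, and the difference of responses kept 0.

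With no filter or with the array-name number as a block, Fgfr1 1424050_s_at lost its calls (adjusted p = 0.061 and 0.060 for genotype after hCG, 0.0507 and 0.0524 for the hCG response of wild type), and with weights 1425911_a_at gained the former (0.93, adjusted p = 0.0094). Ligand differences reversed, none of them called. Without single arrays, genotype after hCG ran from -0.086 to 0.43 for Fgf1 and from -0.030 to 0.33 for Fgf9, and the hCG response of Inha-/- from -0.12 to 0.40 and from -0.063 to 0.29, each lowest without replicate 1 of Inha-/- after hCG. For Fgf7 the wild-type hCG response ran from -0.0044 (without replicate 1 after hCG) to 0.10 and the difference of responses from -0.0034 (without replicate 3 of Inha-/- after hCG) to 0.19. For Fgf1 the wild-type hCG response became 0.045 with the serial covariate.

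The replicate numbers are shared by the 4 groups. Of 18 same-number pairs 6 had a correlation of deviations over 0.1 (-0.12 to 0.27), and in 9 the own number was best. These 9 included every pair between the genotypes after PMSG and between the treatments in wild type. The main fit did not take the numbers as a pairing. After PMSG, replicates 1 of both genotypes shared a number in the array names, as did replicates 2. As a random block the array-name number gave a consensus correlation of 0.271. With the replicate block 1383, 4686, 4845, 534 and 444 probe sets were called in the order above, the 7 FGF probe sets gave 2, 3, 2, 1 and 0, and 1 call, of Etv5, was lost. Quantile normalization was run on the centred values. It gave all arrays the same spread of deviations from the median, so it may remove real differences between groups as well as technical ones. Background correction could not be varied on normalized values and was not run.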
